A study of Mus musculus with 2 samples.

Results

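The genes described here are the 10 that encode the TGF-beta ligands (Tgfb1, Tgfb2, Tgfb3), their receptors (Tgfbr1, Tgfbr2, Tgfbr3) and the latent TGF-beta binding proteins (Ltbp1, Ltbp2, Ltbp3, Ltbp4). They were chosen by gene symbol from the 32285 genes of the count matrices, and all 10 were found in both libraries. TGF-beta is a secreted growth factor. It leaves the cell in a latent complex, held by its own propeptide and, in most tissues, tied to the extracellular matrix by a latent binding protein. Once released, it brings together the type II receptor Tgfbr2 and the type I receptor Tgfbr1, kinases that activate SMAD transcription factors, and the co-receptor Tgfbr3 (betaglycan) presents the ligand, Tgfb2 in particular. In the artery wall the pathway is known for its part in smooth muscle contractile identity, in matrix production and in endothelial-to-mesenchymal transition, the shift of endothelial cells toward a mesenchymal state.

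The study profiled single cells of mouse aorta with 10x Genomics RNA-seq, and addressed the role of endothelial CD45, the leukocyte phosphatase encoded by Ptprc, in atherosclerosis. Mice of both groups were C57BL/6 animals without ApoE, a lipoprotein ligand whose loss leads to high cholesterol, kept on Western diet. WT names those with no other deletion. EC-iCD45KO names those that also lost CD45 from the endothelium (EC, endothelial cells) after tamoxifen. Aortas were digested with enzymes and cells were taken on CD31 microbeads before library construction. The promoter that drives the Cre recombinase, the age and sex of the mice and any pooling of animals are not given in the sources used here. Each group had 1 library, so no difference between the groups has a replicate check, no test was possible, and a difference between preparations cannot be told apart from a difference between genotypes. Values in parentheses after an estimate are its 95% interval, which covers counting error alone.

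The WT library held 39849 barcodes and 92058043 UMIs (unique molecular identifiers, each marking a captured RNA molecule), and the EC-iCD45KO library 30278 barcodes and 88967918 UMIs. Median depth was 1548 and 1405 UMIs per barcode, and the libraries shared 340 barcodes, 0.853% of those of WT and 1.12% of those of EC-iCD45KO. After filtering, 35695 and 26182 cells were grouped into 43 clusters without use of the 10 genes, and 22 clusters were named from marker genes. The names gave 13 classes, of which 12 had at least 50 cells in both libraries, and 32.8% of WT and 22.7% of EC-iCD45KO cells stayed unnamed. EC-like cells were 11.0% and 15.7% of the cells in spite of the CD31 selection. B-like cells were 16.3% in WT and 1.28% in EC-iCD45KO, and macrophage-like cells 6.75% and 26.1%. Levels are given as CPM, counts per 1000000 UMIs of the class in that library, in the order WT and then EC-iCD45KO.

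Ptprc, the deleted gene, stood at 307 and 112 CPM in EC-like cells. It was also lower in SMC-like (smooth muscle) cells, at 245 and 95.3 CPM, and in fibroblast-like cells, at 301 and 133 CPM, classes outside the deletion. The summed markers of B cells in EC-like cells went the same way, at 968 and 83.3 CPM over 9 genes, none of them at 0, and those of T and NK cells stood at 558 and 85.2 CPM over 13 genes, 1 of them at 0 in each library. Summed macrophage markers went the other way, at 3754 and 6238 CPM over 10 genes, none at 0. The summed markers of EC themselves were 4905 and 5654 CPM over 12 genes, none at 0. The part of this leukocyte RNA in the differences reported below was not tested, and its values are given beside some of them.

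Tgfb1, the ligand known as the main form in leukocytes and platelets, lies on chromosome 7 at 25687002 to 25705077 (GRCm38, plus strand) and no other gene of the matrices overlaps it. Its lowest level in the 12 classes was 57.5 CPM. Among the 12 classes the highest levels were in B-like cells, at 279 CPM (270 to 289) and 215 CPM (186 to 247), and in dendritic cell-like cells, at 265 CPM (239 to 294) and 219 CPM (204 to 235), whose intervals overlapped in both libraries. Macrophage-like cells followed at 202 and 200 CPM. Chondrocyte-like cells, outside the 12, held 710 Tgfb1 UMIs of 3041593 in WT and 99 of 388214, from 41 cells, in EC-iCD45KO. Their level lay above macrophage-like cells in WT and above all 12 classes in EC-iCD45KO. With the looser cell filter they were the highest class in EC-iCD45KO, at 236 CPM. EC-like cells had 144 CPM (136 to 152) and 141 CPM (134 to 149), 1.95-fold below B-like cells in WT and 1.52-fold below in EC-iCD45KO. SMC-like cells, at 104 and 76.1 CPM, and plasma-like cells, at 75.6 and 57.5 CPM, were at the low end. In WT the B-like cells carried 23.5% of all Tgfb1 UMIs, and in EC-iCD45KO the macrophage-like cells carried 39.2%, the largest share of a named class in each. Unnamed cells together carried 31.8% and 28.9%.

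Tgfb2 and Tgfb3, ligands of developing and adult mesenchymal tissue, had another pattern. Tgfb2 (chromosome 1, 186622792 to 186705989, minus strand) overlaps the noncoding gene Gm29491 on the other strand. It was highest in SMC-like cells, at 126 CPM (115 to 138) and 143 CPM (136 to 151). Schwann-like cells had 89.2 and 36.6 CPM, lymphatic EC-like cells 73.2 and 47.1 CPM and fibroblast-like cells 31.4 and 31.1 CPM. In WT the log2 ratio of SMC-like to Schwann-like cells was 0.50 (-0.08 to 1.15), from 25 UMIs in Schwann-like cells, so these 2 classes were not resolved there. EC-like cells stood at 14.2 CPM (11.8 to 17.0) and 10.7 CPM. In 5 leukocyte classes (B-like, T/NK-like, macrophage-like, dendritic cell-like and neutrophil-like) Tgfb2 was near 0, and its highest level there, 6.60 CPM in B-like cells of EC-iCD45KO, rested on 6 UMIs. The smooth muscle class was the only 1 of the 12 above 100 CPM in both libraries. The chondrocyte-like class, with 793 WT and 41 EC-iCD45KO cells, reached 111 and 134 CPM.

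Tgfb3 (chromosome 12, 86056745 to 86079041, minus strand) overlaps Ttll5 and Gm48008 on the other strand, and was low in all 12 classes. Whether the counting used strand is not given in the sources used here, so reads of a member and of any gene that overlaps it on the other strand could not be told apart. It had 32.7 CPM (27.2 to 39.0) and 45.9 CPM (41.7 to 50.4) in SMC-like cells, 31.4 and 30.8 CPM in lymphatic EC-like cells and 28.4 and 29.5 CPM in fibroblast-like cells, whose intervals overlapped in WT. The unnamed cluster led by Dgkb and Notch3, nearest to pericytes, had 71.4 and 106 CPM. EC-like cells had 3.28 CPM from 27 UMIs and 4.57 CPM from 46 UMIs, under the minimum of 5 CPM set for a comparison between libraries.

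The starts of the ligand genes that differ most in breadth are shown with that of Ltbp1, the smooth muscle member described below, as the 250 bases before the annotated start on the gene's own strand (RefSeq, GRCm38.p6). Capitals mark matches on either strand to the motifs searched, which were the GC box (GGGCGG), the TATA box (TATAAA), the AP-1 site (TGANTCA), the cyclic AMP response element or CRE (TGACGTCA) and the CAGA SMAD element (CAGACA).
Tgfb1, chr7:25686752-25687001, plus strand: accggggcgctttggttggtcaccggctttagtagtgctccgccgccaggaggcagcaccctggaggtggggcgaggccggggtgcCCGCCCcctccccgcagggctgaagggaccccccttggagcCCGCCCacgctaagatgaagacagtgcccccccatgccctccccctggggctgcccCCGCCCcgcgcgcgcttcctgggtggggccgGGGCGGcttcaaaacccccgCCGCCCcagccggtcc
Tgfb2, chr1:186705990-186706239, minus strand: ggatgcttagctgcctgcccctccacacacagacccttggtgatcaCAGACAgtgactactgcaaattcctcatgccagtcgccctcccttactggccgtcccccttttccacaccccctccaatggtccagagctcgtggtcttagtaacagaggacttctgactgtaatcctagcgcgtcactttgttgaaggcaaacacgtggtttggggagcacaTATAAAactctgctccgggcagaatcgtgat
Ltbp1, chr17:75005279-75005528, plus strand: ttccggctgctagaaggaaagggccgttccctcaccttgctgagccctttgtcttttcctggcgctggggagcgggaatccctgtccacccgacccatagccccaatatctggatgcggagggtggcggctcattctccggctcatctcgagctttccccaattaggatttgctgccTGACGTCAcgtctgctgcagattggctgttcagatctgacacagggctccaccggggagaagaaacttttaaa
The Tgfb1 window was 75.2% G or C, with 5 GC boxes and no TATA box. The Tgfb2 window was 53.6% G or C, with 1 TATA box, 1 CAGA element and no GC box. The first of the annotated Ltbp1 starts, shown here, had 1 CRE, and the window of the second had 2 CAGA elements and no CRE. Over all 32851 windows of this length, 32.7% held a GC box, 12.4% a TATA box, 6.75% an AP-1 site, 1.55% a CRE and 17.1% a CAGA element. These matches describe the letters alone, and the data do not show which start is used. Windows were matched for 8 of the 10 genes, and Tgfb3 and Tgfbr3 were not among them.

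Among the receptors, Tgfbr1 (chromosome 4, 47353222 to 47414931, plus strand), the type I kinase, was highest in macrophage-like cells, at 289 CPM (278 to 299) and 239 CPM (233 to 244). Erythroid-like cells had 112 CPM (83.3 to 148) and 224 CPM (169 to 291), an interval that overlapped macrophage-like cells in EC-iCD45KO. Those levels came from 50 and 56 UMIs in 352 and 160 cells, with a median of 910 and 829 UMIs per cell. Ibsp, Ighm and Jchain were among the leading genes of that cluster, and the part of RNA from other cells was not tested. Neutrophil-like cells had 132 and 163 CPM, SMC-like cells 108 and 153 CPM and EC-like cells 83.1 and 85.6 CPM. T/NK-like cells had 46.2 and 66.3 CPM. Tgfbr2 (chromosome 9, 116084293 to 116175360, minus strand), the ligand-binding type II kinase, was highest in B-like cells, at 280 CPM (271 to 289) and 248 CPM (216 to 282), with lymphatic EC-like cells at 226 and 192 CPM, macrophage-like cells at 214 and 155 CPM and T/NK-like cells at 178 and 203 CPM. Lymphatic EC-like cells were next in WT and T/NK-like cells in EC-iCD45KO. EC-like cells had 165 CPM (156 to 174) and 158 CPM (150 to 166), within counting error of fibroblast-like cells in both libraries. They stood 1.73-fold above SMC-like cells in WT and 2.43-fold above in EC-iCD45KO. Over the 12 classes the lowest levels were 46.2 CPM for Tgfbr1 and 35.4 CPM for Tgfbr2.

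Tgfbr3 (chromosome 5, 107106570 to 107289629, minus strand) was concentrated outside the myeloid and B cells. EC-like cells had 125 CPM (118 to 133) and 119 CPM (112 to 126), and fibroblast-like cells 122 and 125 CPM, within counting error of each other. Schwann-like cells had 189 and 129 CPM and lymphatic EC-like cells 119 and 176 CPM. SMC-like cells were lower, at 46.8 and 46.7 CPM, a level 2.68-fold and 2.54-fold below EC-like cells. T/NK-like cells had 44.3 and 27.4 CPM, while B-like and macrophage-like cells stayed between 1.40 and 2.20 CPM.

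The latent binders differed from each other in where they were highest. Ltbp1 (chromosome 17, 75005568 to 75392512, plus strand), which ties latent TGF-beta to the matrix, stood at 558 CPM (535 to 583) and 535 CPM (521 to 550) in SMC-like cells. Its intervals there lay apart from those of every other of the 12 classes in both libraries, and the level was 7.42-fold and 6.70-fold above fibroblast-like cells. EC-like cells had 37.1 CPM (33.0 to 41.5) and 38.7 CPM (34.9 to 42.7), and the 5 leukocyte classes 2.14 to 9.93 CPM. SMC-like cells were 4.28% and 10.7% of the cells and carried 35.9% and 65.3% of all Ltbp1 UMIs.

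Ltbp4 (chromosome 7, 27305136 to 27337692, minus strand), which also serves elastic fibre assembly, had its highest class level in EC-like cells, with large differences between their clusters, described below. EC-like cells had 267 CPM (256 to 278) and 287 CPM (277 to 298), and lymphatic EC-like cells 230 and 236 CPM with overlapping intervals. Fibroblast-like cells had 182 and 185 CPM and SMC-like cells 139 and 142 CPM. The 5 leukocyte classes lay between 3.69 and 12.4 CPM. EC-like cells carried 39.0% and 43.4% of all Ltbp4 UMIs.

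Ltbp3 (chromosome 19, 5740904 to 5758532, plus strand) was, among the 12 classes, highest in SMC-like cells, at 116 CPM (106 to 128) and 124 CPM (117 to 131), with intervals apart from fibroblast-like cells, at 59.8 and 90.9 CPM, in both libraries. Schwann-like cells had 85.6 CPM (54.9 to 127) and 40.3 CPM, so their interval overlapped that of SMC-like cells in WT. Ltbp3 stood at 27.6 and 21.3 CPM in EC-like cells. Chondrocyte-like cells, outside the 12, had 111 and 155 CPM (118 to 199), above SMC-like cells in EC-iCD45KO with overlapping intervals. Ltbp2 (chromosome 12, 84783212 to 84876532, minus strand), a matrix protein of the family that does not bind latent TGF-beta, overlaps D030025P21Rik on the other strand. Fibroblast-like cells had 56.8 and 133 CPM, SMC-like cells 54.2 and 45.1 CPM with an overlapping interval in WT, and EC-like cells 15.1 and 11.3 CPM. The SMC-like level depended on the processing, at 192 and 127 CPM with no doublet removal, above fibroblast-like cells at 49.2 and 121 CPM. With means of single-cell CPM, SMC-like cells had 32.4 and 35.9 CPM and fibroblast-like cells 36.5 and 81.0 CPM. Chondrocyte-like cells had 198 and 178 CPM. Its highest level among all populations was in the unnamed cluster led by Chil1 and Prg4, at 287 and 391 CPM, where markers of fibroblasts (6314 and 7911 CPM) and of smooth muscle (5027 and 4478 CPM) were both present.

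**Figure D1:**
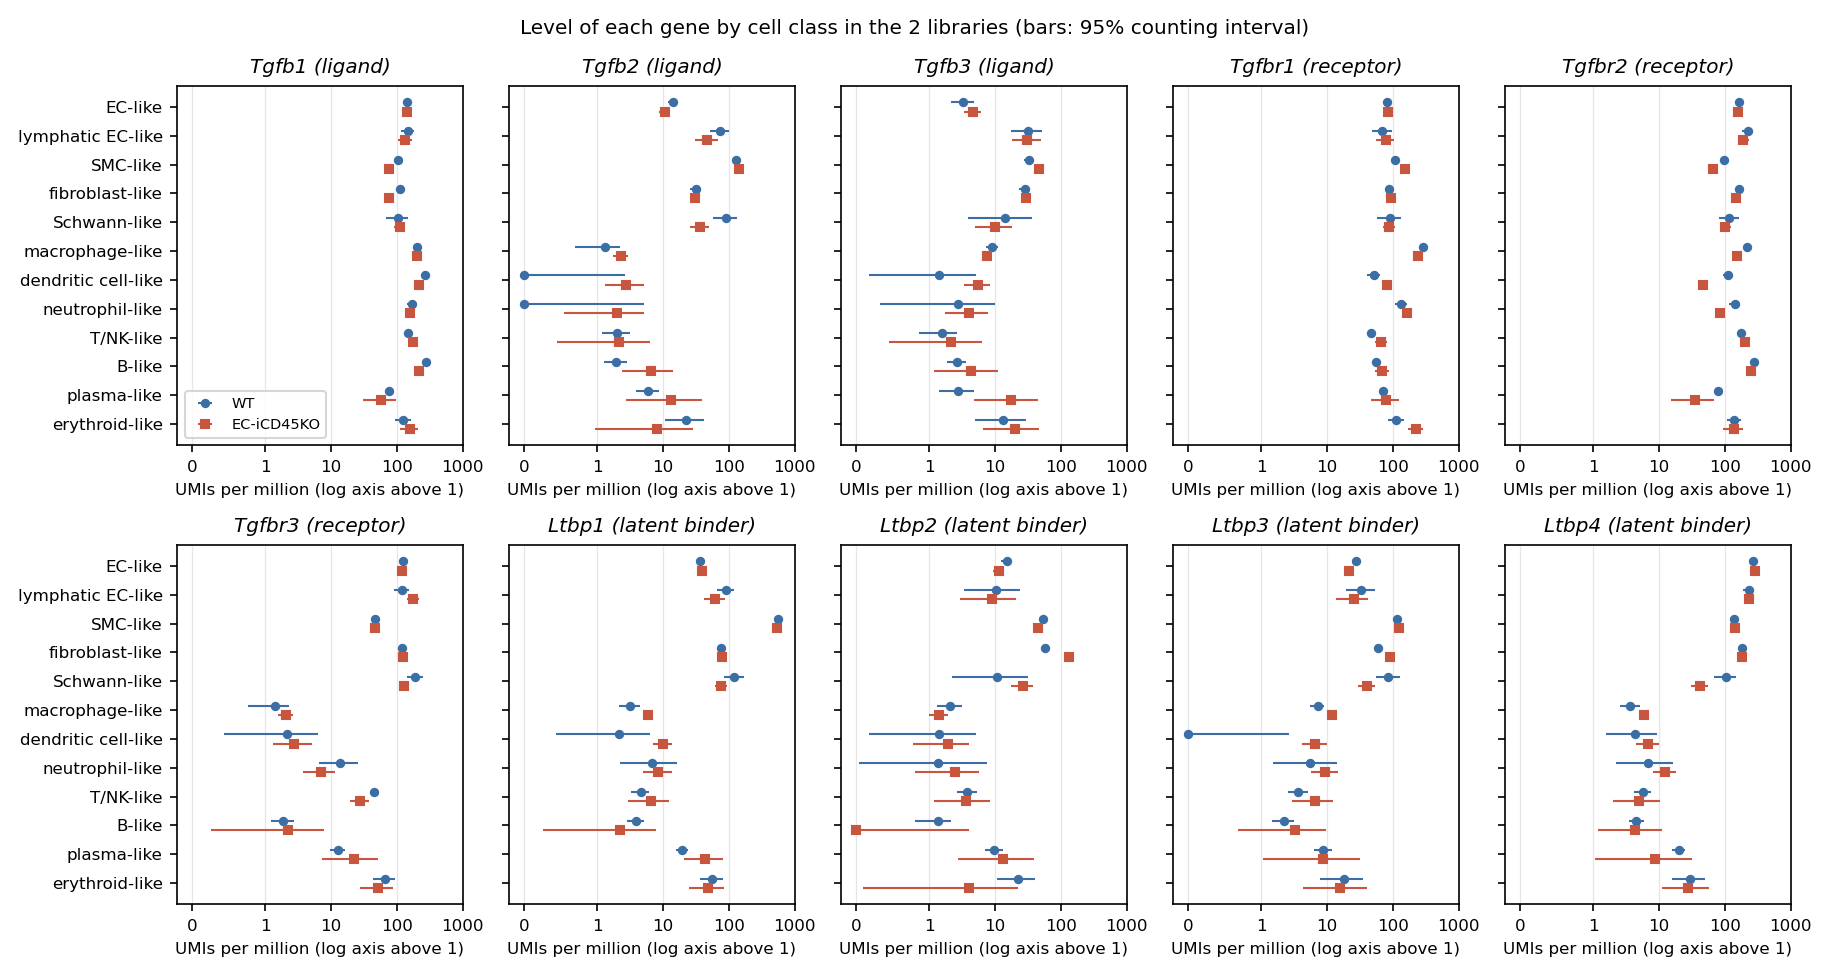
CPM (log axis above 1) of each of the 10 genes in 12 cell classes, WT as circles and EC-iCD45KO as squares, with 95% counting intervals. Ltbp1 peaks in SMC-like cells (558 and 535 CPM) and Ltbp4 in EC-like cells (267 and 287 CPM). The lowest class levels are 57.5 CPM for Tgfb1, 46.2 CPM for Tgfbr1 and 35.4 CPM for Tgfbr2.

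The class with the highest level was the same in both libraries for 8 of the 10 genes, Tgfb1 and Tgfbr3 being the exceptions. Between the libraries the levels over the 12 classes correlated with a Pearson r of 0.86 (Tgfb3) to 0.98 (Tgfbr3), given as a description of 12 classes that share a library on each side. Ranked by mean level over both libraries, only 7 of 110 pairs of neighbouring classes had intervals apart in both libraries, so most of the finer order is not resolved.

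The share of cells with at least 1 UMI was taken after thinning each cell to 1000 UMIs, which left out 1275 WT and 1496 EC-iCD45KO EC-like cells. Ltbp4 was seen in 20.3% (18.7 to 21.8) and 21.0% (19.4 to 22.6) of EC-like cells, and without thinning in 27.5% and 28.7%. In B-like cells, which should lack it, the thinned share was 0.519% in WT and 0 of 309 cells in EC-iCD45KO, which allows up to 1.19%, at median depths of 2006 and 2550 UMIs against 1326 and 1275 in EC-like cells. Tgfbr3 was seen in 9.58% and 9.71% of EC-like cells (16.9% and 16.3% without thinning), against 0.185% of WT B-like cells. Tgfb2 was seen in 1.40% (0.985 to 1.92) and 1.11% (0.744 to 1.59) of EC-like cells (2.52% and 2.26% without thinning) and in 7.90% and 10.0% of SMC-like cells (16.0% and 22.4%), where thinning left out 502 and 848 cells. B-like cells gave 0.222% (0.115 to 0.388) and 0.324% (0.00819 to 1.79). Tgfb3 in EC-like cells, at 0.453% (0.234 to 0.789) and 0.688% (0.408 to 1.09), or 0.688% and 1.09% without thinning, overlapped the B-like share of 0.315% (0.184 to 0.504) in WT and is read as background there. In EC-iCD45KO the 309 B-like cells are too few to tell a share of this size from background, for Tgfb2 in EC-like cells as for Tgfb3. Ltbp1 was seen in 34.7% and 32.0% of SMC-like cells (41.7% and 45.7% without thinning) and in 3.09% and 4.13% of EC-like cells (5.58% and 7.20%), with 0.482% in WT B-like cells.

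The EC-like class was made of 3 clusters, clustered without the 10 genes, and several of the 10 had levels that differed between them in the same direction in both libraries. The cluster led by Cytl1, Sfrp1, Edn1, Gja4 and Gja5 held 939 and 614 cells. The one led by Gpihbp1 and Adgrl4 held 663 and 778 cells, and the shallow one led by Glycam1 and Gpihbp1 held 2324 and 2720 cells, with a median of 1092 and 1020 UMIs. Gja4 and Gja5 encode gap junction proteins of arterial endothelium, and Gpihbp1 anchors lipoprotein lipase on capillary endothelium.

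Ltbp4 stood at 532 and 688 CPM in the Cytl1 and Sfrp1 cluster and at 231 and 276 CPM in the Gpihbp1 and Adgrl4 cluster. The difference was 2.30-fold in WT, or 1.20 (1.05 to 1.35) as a log2 ratio, and 2.49-fold or 1.32 (1.20 to 1.44) in EC-iCD45KO. The cluster led by Glycam1 had 130 and 144 CPM, and the Cytl1 and Sfrp1 cluster had the highest Ltbp4 level of all classes and clusters measured. Ltbp3 had 71.0 and 66.7 CPM against 9.16 and 7.16 CPM in the same pair of clusters, 7.75-fold and 9.32-fold higher. Ltbp2 had 31.0 and 39.1 CPM against 5.24 and 2.65 CPM, 5.92-fold and 14.8-fold higher, the lower levels resting on 12 and 10 UMIs. Against the larger Glycam1 cluster Ltbp3 was 5.49-fold and 4.27-fold higher and Ltbp2 2.68-fold and 4.94-fold higher.

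Tgfbr3 ran the other way, at 62.5 and 48.3 CPM in the Cytl1 and Sfrp1 cluster against 225 and 197 CPM in the Gpihbp1 and Adgrl4 cluster, 3.60-fold and 4.08-fold lower. Ltbp1 was also lower there, 1.54-fold and 1.44-fold, with intervals below 0 on the log2 scale. Against the Glycam1 cluster Tgfbr3 was 1.62-fold and 1.67-fold lower in the Cytl1 and Sfrp1 cluster, and the Ltbp1 intervals held 0. The following ratios are again to the Gpihbp1 and Adgrl4 cluster. Tgfb1 gave log2 ratios of 0.23 (-0.01 to 0.46) and 0.07 (-0.15 to 0.30), and Tgfbr2 -0.11 (-0.33 to 0.10) and -0.20 (-0.42 to 0.00). Tgfb2 differed in sign between the libraries, at 1.52 (0.71 to 2.38) and -0.55 (-1.62 to 0.42). Smooth muscle markers summed to 1152 and 1244 CPM in the Cytl1 and Sfrp1 cluster and to 348 and 428 CPM in the Gpihbp1 and Adgrl4 cluster. Fibroblast markers summed to 724 and 914 CPM against 85.5 and 66.8 CPM. Chondrocyte markers, of which Cytl1 is 1, summed to 2055 and 2094 CPM against 211 and 74.0 CPM. Their part in the Ltbp2 and Ltbp3 values was not tested. Each of these contrasts is between cells of the same library.

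**Figure D2:**
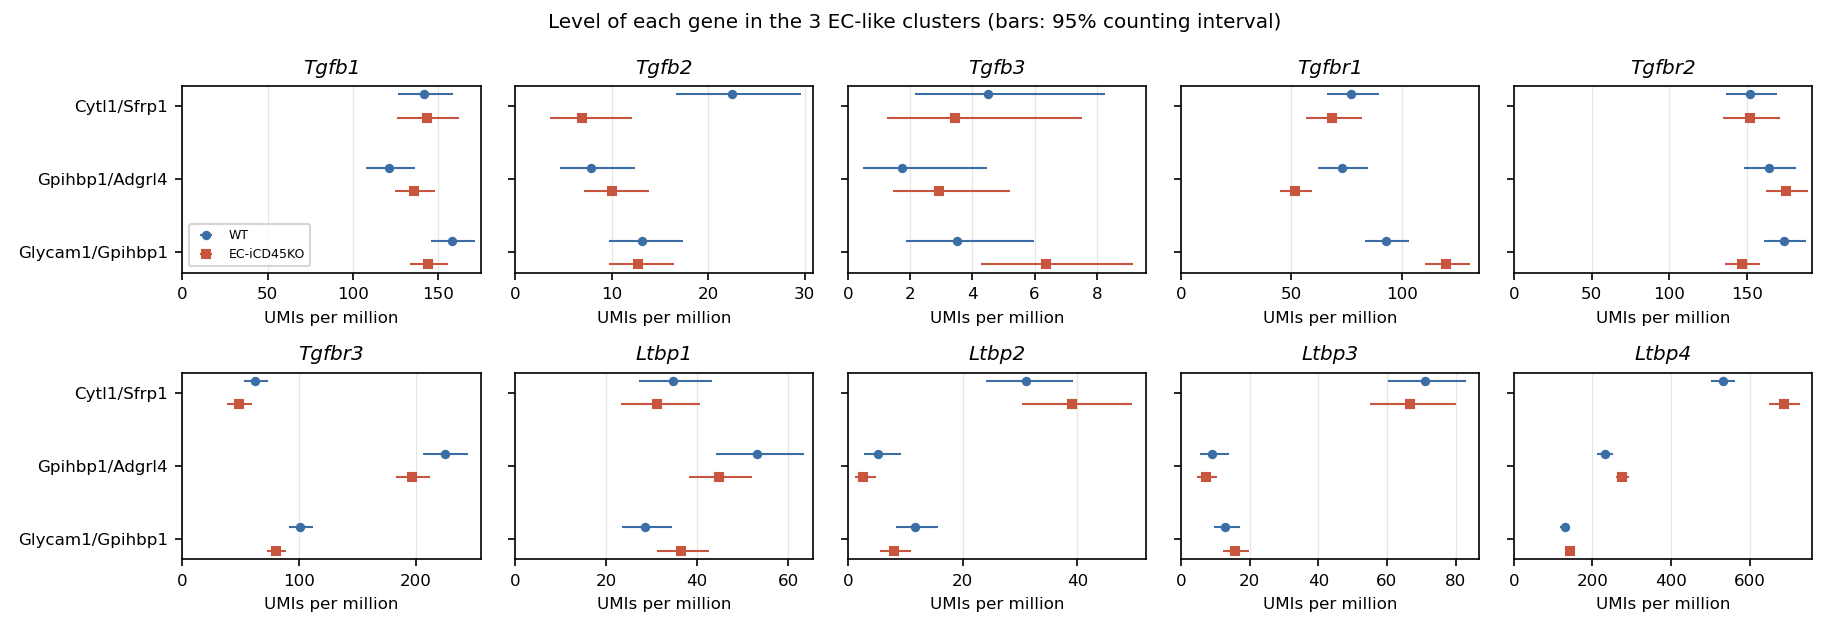
CPM (linear axis from 0) of each of the 10 genes in the 3 EC-like clusters, WT as circles and EC-iCD45KO as squares, with 95% counting intervals. Ltbp4, Ltbp3 and Ltbp2 are highest in the Cytl1/Sfrp1 cluster in both libraries, and Tgfbr3 in the Gpihbp1/Adgrl4 cluster.

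The comparison of EC-iCD45KO with WT asks whether the pathway's expression differed with endothelial CD45. A gene was counted as past the fold when the libraries differed at least 1.5-fold and the mean level was at least 5 CPM. In EC-like cells 9 of the 10 genes reached that level and none was past the fold in either direction. Of all 10974 genes at that level, 5.05% were past the fold higher in EC-iCD45KO and 7.78% lower. The median log2 ratio of the 9 was -0.06, beside -0.01 for all genes. Tgfbr1 had 0.04 (-0.10 to 0.19), Tgfbr2 -0.06 (-0.17 to 0.04) and Tgfb1 -0.03 (-0.14 to 0.09), intervals that leave out a 1.5-fold difference for this pair of libraries as far as counting error goes. The Tgfbr1 value depended on the processing, at -0.81, past the fold lower, with the level of T/NK-like and B-like cells subtracted and at 0.39 with means of single-cell CPM. The subtraction gave no value for Tgfb1 and Tgfbr2 in this class, and put Tgfb2 (-0.84) and Ltbp3 (-0.63) past the fold lower as well. It took off the whole level of those lymphocytes, which itself differed between the libraries. Tgfbr1 stood at 54.8 and 69.3 CPM in B-like cells and at 46.2 and 66.3 CPM in T/NK-like cells. In EC-iCD45KO their Tgfb2 level rested on 6 and 3 UMIs. The part of lymphocyte RNA in EC-like cells was not tested.

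Ltbp4 had a log2 ratio of 0.11 (0.03 to 0.19) in EC-like cells. Ltbp3 had -0.37 (-0.65 to -0.10) and Ltbp2 -0.41 (-0.79 to -0.03), the most negative values of the class with Tgfb2 at -0.40 (-0.80 to -0.01). The Cytl1 and Sfrp1 cluster, where Ltbp2 and Ltbp3 were concentrated, was a smaller part of the class in EC-iCD45KO. With the 3 clusters weighted equally, Ltbp3 gave -0.06 and Ltbp2 0.06. Ltbp2 stood at 31.0 and 39.1 CPM in that cluster, 11.6 and 7.92 CPM in the Glycam1 cluster and 5.24 and 2.65 CPM in the Gpihbp1 and Adgrl4 cluster. In the same order Ltbp3 stood at 71.0 and 66.7, 12.9 and 15.6, and 9.16 and 7.16 CPM. The part of the cluster shares in the class values was not tested. Ltbp2 was past the fold lower with the looser cell filter, at -0.65, and stood at 0.41 in the 698 and 370 EC-like cells without common leukocyte markers. Within the Cytl1 and Sfrp1 cluster 1 of 9 genes was past the fold, Tgfb2, where 8.48% of genes were past it higher and 12.8% lower. Tgfb2 had 22.5 CPM from 50 UMIs and 6.90 CPM from 12 UMIs, a log2 ratio of -1.70 (-2.75 to -0.77). In the Glycam1 cluster none of 9 was past it (9.47% of genes higher, 11.9% lower), and in the Gpihbp1 and Adgrl4 cluster none of 8 (5.67% and 8.89%). In those clusters Tgfb2 gave -0.05 (-0.62 to 0.53) and 0.36 (-0.49 to 1.26).

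In SMC-like cells all 10 genes reached 5 CPM and none was past the fold, where 5.50% of genes were past it higher and 10.7% lower. Ltbp1, with 2101 and 5075 UMIs, gave -0.06 (-0.13 to 0.01). Tgfbr1 stood at 108 and 153 CPM, a log2 ratio of 0.50 (0.35 to 0.67), and Tgfb3 at 0.49 (0.20 to 0.79). Tgfbr1 was past the fold higher with no doublet removal (0.65), with TMM scaling (0.59) and with the level of T/NK-like and B-like cells subtracted (0.60). Tgfbr2 was lower, at 95.6 and 65.2 CPM or -0.55 (-0.74 to -0.36), as was Tgfb1, at -0.46 (-0.63 to -0.27). Both of these genes are high in B-like cells, and the summed B cell markers in SMC-like cells were 777 and 54.4 CPM, while macrophage markers were 1955 and 4635 CPM. The class held a shallow cluster of 1304 and 2372 cells and a deep one of 223 and 442 cells. In the shallow cluster 1 of 10 genes was past the fold, Tgfbr2, lower at 136 and 88.8 CPM or -0.61 (-0.85 to -0.38), where 12.0% of genes were past it higher and 16.2% lower, and B cell markers summed to 1409 and 98.7 CPM. In the deep cluster none of 10 was past it, where 5.08% and 9.49% of genes were, and B cell markers summed to 176 and 16.8 CPM and macrophage markers to 277 and 670 CPM. There Tgfbr1 gave 0.46 (0.23 to 0.68), Tgfb1 -0.46 (-0.77 to -0.15) and Tgfbr2 -0.35 (-0.68 to -0.01). Tgfbr2 was at -0.04 with no doublet removal and past the fold with the stricter (-0.62) and the looser (-0.65) cell filter. In the 296 and 154 cells without common leukocyte markers Tgfb3, at 1.07, and Ltbp4, at 0.64, were past the fold higher and Tgfb1, at -0.88, lower. The share of all genes past the fold in these few cells was not computed. Ltbp2 was past it lower with no doublet removal (-0.60) and at Leiden resolution 2 (-0.65).

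Fibroblast-like cells had 2 genes past the fold of 10, both higher in EC-iCD45KO and both of the Ltbp family, where 6.74% of all genes were past it higher and 12.1% lower. Ltbp2 stood at 56.8 CPM (49.6 to 64.7) from 224 UMIs and 133 CPM (124 to 143) from 806 UMIs, a log2 ratio of 1.23 (1.02 to 1.45). Ltbp3 stood at 59.8 CPM (52.4 to 68.0) and 90.9 CPM (83.5 to 98.9), a log2 ratio of 0.60 (0.38 to 0.83), just past the fold. Ltbp1, at 0.08 (-0.13 to 0.30), and Ltbp4, at 0.02 (-0.12 to 0.16), were not. The 3 receptors lay between -0.16 and 0.11, and Tgfb1 gave -0.52 (-0.71 to -0.33). In the 303 and 167 fibroblast-like cells without common leukocyte markers, Tgfbr1 was at 0.62 and past the fold higher, and Tgfb1, at -1.12, and Tgfb2, at -0.93, were past it lower. The share of all genes past the fold in these few cells was not computed. With the lymphocyte level subtracted Tgfbr1 gave -0.45, and with the looser cell filter Tgfb1 gave -0.70.

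The share of fibroblast-like cells with an Ltbp2 UMI, thinned to 1000 UMIs, was 3.86% (2.90 to 5.02) and 8.23% (6.90 to 9.73), and the unthinned share 5.28% and 12.5%. B-like cells gave 0.0926% in WT, and none of 309 cells in EC-iCD45KO. Ltbp2 was past the fold in both fibroblast-like clusters, at 0.95 (0.61 to 1.30) in the shallow one and 1.24 (0.95 to 1.53) in the deep one. Ltbp3 was past it in the shallow one, at 0.68 (0.28 to 1.09), and not in the deep one, at 0.35 (0.08 to 0.63), where Tgfbr1 was, at 0.80 (0.42 to 1.18). Each cluster thus had 2 of 10 genes past the fold higher and none lower, where 10.9% and 15.1% of genes in the shallow one and 7.31% and 12.5% in the deep one were past it higher and lower. Summed markers in fibroblast-like cells were 3660 and 5818 CPM for macrophages, 174 and 204 CPM for chondrocytes and 762 and 808 CPM for smooth muscle, and their part was not tested. Ltbp2 stood at 2.10 and 1.40 CPM in macrophage-like cells. Across 12 alternative settings Ltbp2 stayed between 0.83 and 1.34, and Ltbp3 between 0.45 and 0.77. Ltbp3 was under the fold in 2 of them, at 0.56 with mitochondrial, ribosomal, haemoglobin and immunoglobulin genes left out of the totals and at 0.45 with the clusters weighted equally.

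Outside the named class, Ltbp2 was also higher in the unnamed cluster led by Mmp13 and Ibsp, nearest to smooth muscle cells and fibroblasts, at 99.8 and 229 CPM with a log2 ratio of 1.20 (0.96 to 1.44). In that cluster 3 of 10 genes were past the fold higher (Tgfb2, Ltbp2 and Ltbp3) and 1 lower (Tgfbr2), where 11.8% and 23.0% of genes were. Fibroblast markers there also differed, at 1898 and 3456 CPM, and B cell markers at 1448 and 141 CPM, and their part was not tested. The unnamed cluster led by Timp1 and Rgs5 had Ltbp2 at 36.3 CPM from 13 UMIs and 144 CPM from 68 UMIs, a ratio of 1.99 (1.12 to 2.97). There 2 of 10 genes were past the fold higher (Tgfb2 and Ltbp2) and 1 lower (Tgfb1), where 22.5% and 22.6% of genes were. In the Chil1 and Prg4 cluster the ratio of Ltbp2 was 0.44 (0.33 to 0.56), in the same direction but under the fold. The 1 of 10 genes past it there was Ltbp4, lower at 146 and 95.9 CPM, where 4.21% of genes were past it higher and 9.26% lower. For Ltbp2 in chondrocyte-like cells, with 41 cells in EC-iCD45KO, the ratio was -0.16 (-0.54 to 0.20), and in SMC-like cells -0.26 (-0.51 to -0.02). Ltbp2 was thus not higher in EC-iCD45KO in every population that expresses it.

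**Figure D3:**
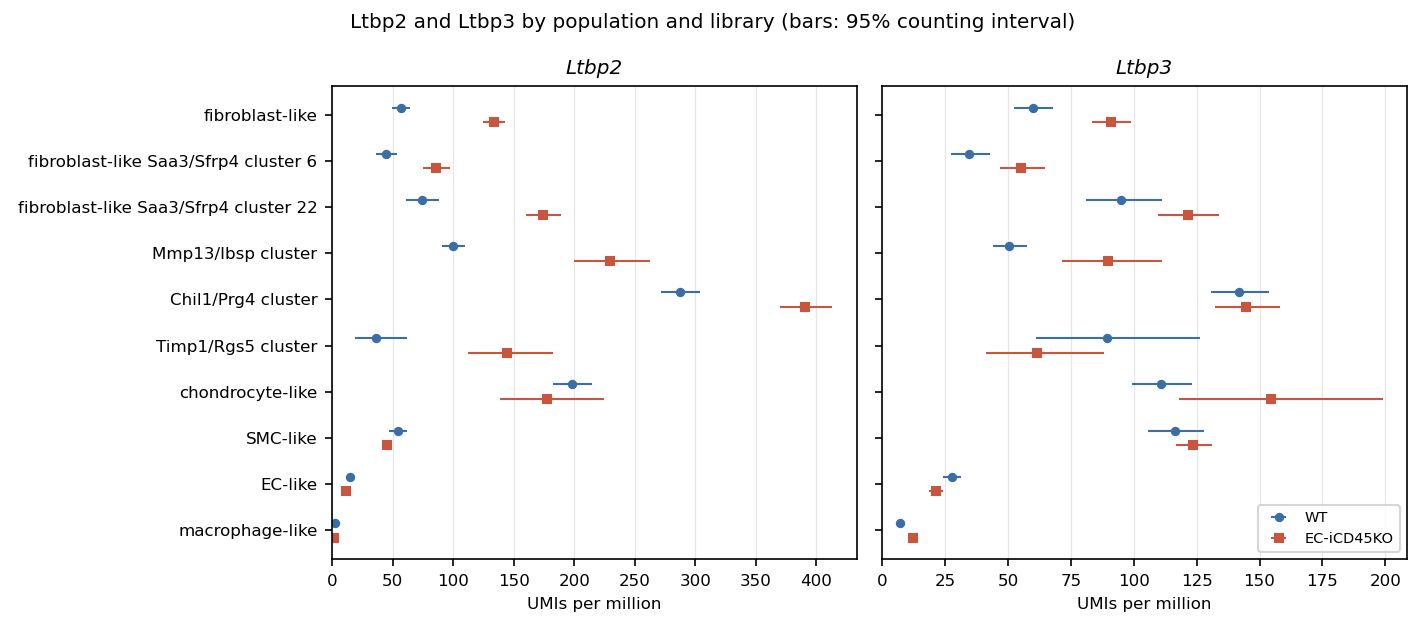
CPM (linear axis from 0) of Ltbp2 and Ltbp3 in 10 populations, WT as circles and EC-iCD45KO as squares, with 95% counting intervals. Ltbp2 is higher in EC-iCD45KO in fibroblast-like cells (56.8 and 133 CPM), in both of their clusters (the shallow one drawn above the deep one) and in the Mmp13/Ibsp cluster (99.8 and 229 CPM), and is near 0 in macrophage-like cells.

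In macrophage-like cells 5 of the 10 genes reached 5 CPM and 1 was past the fold, where 2.91% of genes were past it higher and 3.25% lower. That gene was Ltbp3, at 7.19 CPM from 72 UMIs and 12.1 CPM from 335 UMIs, a log2 ratio of 0.75 (0.38 to 1.13). Of the genes under 5 CPM, Ltbp1 had 3.19 and 5.98 CPM, Ltbp4 3.69 and 5.83 CPM, Tgfb2 1.30 and 2.27 CPM and Tgfbr3 1.40 and 2.05 CPM. Ltbp2 went the other way, at 2.10 and 1.40 CPM. In SMC-like cells Ltbp3 stood at 116 and 124 CPM, and smooth muscle markers in macrophage-like cells were 120 and 269 CPM, whose part was not tested. Tgfbr2 gave -0.47 (-0.54 to -0.39) and Tgfbr1 -0.28 (-0.34 to -0.21), while Tgfb1 gave -0.02 (-0.09 to 0.06). B-like cells, where Tgfbr2 was highest at 280 and 248 CPM, were 16.3% and 1.28% of the cells, and the part of their RNA was not tested. The macrophage-like class held 2 clusters. In the one led by Gpnmb and Mmp12, Ltbp3 was past the fold higher, at 0.67 (0.22 to 1.14), and Tgfb3 lower, at 9.27 and 5.28 CPM or -0.81 (-1.32 to -0.30), 1 of 5 genes each way beside 4.24% and 3.92% of genes. In the one led by Ccl12 and Fcrls, 1 of 6 was past it higher, Ltbp3 at 0.98 (0.31 to 1.72), and none lower, beside 3.17% and 5.46%.

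**Figure D4:**
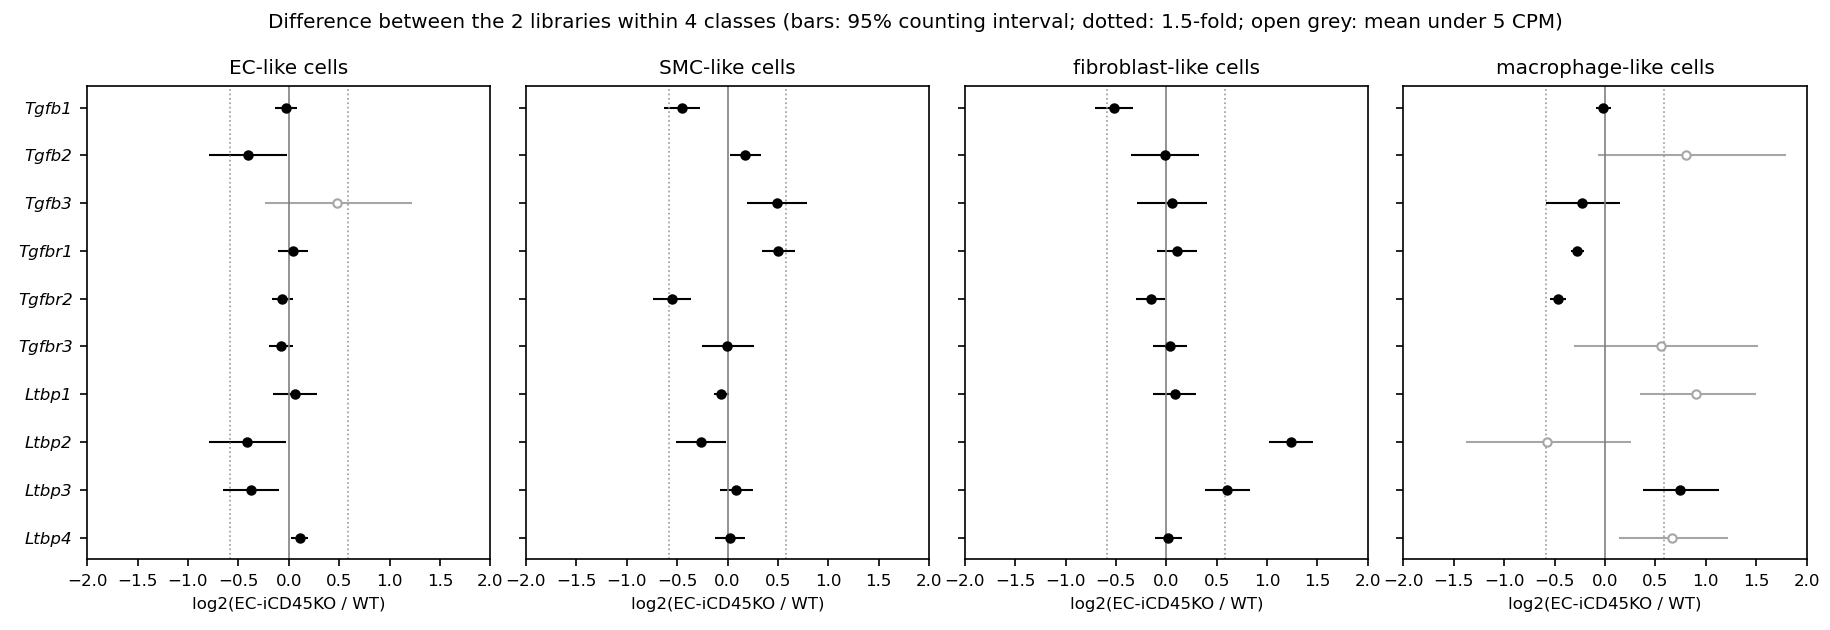
log2 ratio of EC-iCD45KO to WT for each of the 10 genes in EC-like, macrophage-like, SMC-like and fibroblast-like cells, with 95% counting intervals, the 1.5-fold limits dotted and genes under 5 CPM in open grey. The black points past the dotted lines are Ltbp2 (1.23) and Ltbp3 (0.60) in fibroblast-like cells and Ltbp3 (0.75) in macrophage-like cells.

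Over all classes and unnamed clusters with at least 20 UMIs of a gene in both libraries, Tgfbr2 was lower in EC-iCD45KO in 16 of 19 populations, 9 of them with an interval below 0, and Tgfbr1 was higher in 13 of 17, 6 of them with an interval above 0. Tgfb1 was lower in 13 of 19, 7 of them with an interval below 0. Of 3134 genes with that many UMIs in at least 15 populations, 16.7% were lower in as large a share of populations as Tgfbr2, 36.7% in as large a share as Tgfb1, and 17.4% were higher in as large a share as Tgfbr1. Dendritic cell-like cells showed both, with Tgfbr2 at 110 and 46.9 CPM, a log2 ratio of -1.23 (-1.55 to -0.91), and Tgfbr1 at 51.5 and 83.1 CPM, a ratio of 0.69 (0.32 to 1.08). In that class 3 of 5 genes were past the fold higher and 1 lower, where 9.62% and 10.7% of genes were. Ltbp1 and Ltbp4, the other genes higher, rested on 3 and 6 UMIs in WT. Its median depth was 4980 and 1798 UMIs, and B cell markers in it stood at 410 and 65.1 CPM, with macrophage markers at 2073 and 4973 CPM. Neutrophil-like cells had Tgfbr2 at 141 and 84.5 CPM, a ratio of -0.74 (-1.10 to -0.37), with B cell markers at 1172 and 70.6 CPM. There 2 of 7 genes were past the fold higher (Ltbp3 and Ltbp4, from 4 and 5 UMIs in WT) and 2 lower (Tgfbr2 and Tgfbr3), where 14.0% and 22.4% of genes were. In B-like cells Tgfbr2 gave -0.18 (-0.38 to 0.02), and none of 3 genes was past the fold (10.4% of genes higher, 6.57% lower). In T/NK-like cells it gave 0.19 (0.00 to 0.38), and 1 of 7 genes was past the fold higher (Ltbp3, 33 and 9 UMIs, with an interval that held 0) and 1 lower (Tgfbr3, at -0.69), where 14.8% and 6.19% of genes were. The populations share their library, so this count is a description and not a set of independent results.

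The rarer populations gave larger ratios on fewer counts. An unnamed cluster led by Igfbp3 and Stmn2, nearest to EC by its markers, held 65 and 98 cells. There 7 of 10 genes were past the fold higher, the 3 ligands, Tgfbr1, Ltbp1, Ltbp2 and Ltbp3, and none lower, where 31.0% of genes were past it higher and 22.2% lower. Tgfbr1, with 5 and 31 UMIs and a ratio of 1.64 (0.26 to 3.36), had an interval above 0, Ltbp3 had 0 and 13 UMIs, and the intervals of the other 5 held 0. Summed EC markers in that cluster were 3764 and 4497 CPM and smooth muscle markers 5432 and 6105 CPM. In lymphatic EC-like cells 1 of 10 genes was past the fold, Tgfb2, lower at -0.64 (-1.43 to 0.14), where 20.1% of genes were past it higher and 21.0% lower. Plasma-like cells, 76 of them in EC-iCD45KO, had 4 of 10 genes past it higher and 2 lower (19.3% and 35.9% of genes), and erythroid-like cells 1 higher and 2 lower (25.5% and 31.1%). In Schwann-like cells 4 of 10 genes were past the fold lower (Tgfb2, Ltbp1, Ltbp3 and Ltbp4) and 1 higher (Ltbp2), where 21.6% of all genes were past it lower and 22.0% higher. The class held 140 WT cells. In the Dgkb and Notch3 cluster 6 of 10 were past it higher and none lower, where 19.5% and 19.9% of genes were. Ltbp4 there had 15.1 CPM from 7 UMIs and 101 CPM from 82 UMIs, a ratio of 2.73 (1.63 to 4.09). Summed pericyte markers in that cluster were 2968 and 5284 CPM and plasma cell markers 1906 and 135 CPM, and their part was not tested. In the unnamed cluster of cycling cells led by Ube2c and Hist1h1b 4 of 9 genes were past the fold higher (Tgfb3, Ltbp1, Ltbp2 and Ltbp3) and 1 lower (Ltbp4), where 14.3% and 12.1% of genes were, from at most 42 UMIs a gene in a library. Fibroblast markers in that cluster summed to 220 and 651 CPM, smooth muscle markers to 347 and 891 CPM and B cell markers to 1269 and 126 CPM, and their part was not tested.

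The other genes of the pathway were read from lists of 48 genes, and the counts in EC-like cells stand beside 5.05% of all genes past the fold higher and 7.78% lower. In EC-like cells the endothelial co-receptor Eng stood at 319 and 440 CPM, a log2 ratio of 0.46 (0.39 to 0.53), and Acvrl1, the endothelial type I receptor, at 70.5 and 82.4 CPM, a ratio of 0.23 (0.07 to 0.38), and neither was past the fold. None of 4 SMAD transducers and none of 8 feedback inhibitors was, among them Smad7, which blocks the receptors, at -0.02 (-0.16 to 0.12). Of 13 activators of latent TGF-beta and associated matrix genes at 5 CPM, 2 were past the fold higher, the membrane protease Mmp14 at 58.9 and 96.2 CPM and the urokinase Plau at 10.8 and 22.6 CPM. Of 12 response genes, 2 were higher, Tgfbi at 110 and 200 CPM and the transcription factor Snai1 at 9.96 and 15.2 CPM, and the list's median was 0.10. Tgfbi is also a macrophage gene, at 410 and 690 CPM in macrophage-like cells. Of 3 small proteoglycans that bind TGF-beta, Bgn was past the fold lower, at 476 and 255 CPM.

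Fibroblast-like cells had more of these genes past the fold. Of 12 response genes 7 were past the fold higher in EC-iCD45KO and none lower, beside 6.74% and 12.1% of all genes, and the list's median was 0.76 beside -0.05 for all 11069 genes. The 7 were Ccn2, Tgfbi, Snai1 and the fibrillar collagen genes Col1a1, Col1a2, Col3a1 and Col5a2. Tgfbi is also a macrophage gene, and macrophage markers in fibroblast-like cells were higher in EC-iCD45KO, as given above. Their part was not tested. Col3a1 stood at 1952 and 4431 CPM, a ratio of 1.18 (1.15 to 1.22), and Col1a1 at 962 and 2166 CPM, a ratio of 1.17 (1.12 to 1.22). Ccn2, a matrix-associated growth regulator, stood at 247 and 420 CPM, or 0.77 (0.66 to 0.88). Junb, a response gene induced early after stimulation, ran the other way at -0.51 (-0.56 to -0.45).

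Of 16 activators and associated matrix genes in fibroblast-like cells, 6 were past the fold higher and none lower, beside the same 6.74% and 12.1%, and the list's median was 0.48. Itgb6 and Itgb8 encode integrin chains that release TGF-beta from its latent complex, and Itgb8 stood at 22.1 and 45.5 CPM, a ratio of 1.05 (0.69 to 1.41). Fibronectin, Fn1, stood at 260 and 451 CPM, and Lrrc32, which holds latent TGF-beta on the cell surface, at 12.4 and 20.7 CPM. The proteases Mmp9, with 11 and 45 UMIs, and Plau made up the rest. Smad3, the receptor-activated transducer, was higher at 40.8 and 66.1 CPM, or 0.70 (0.43 to 0.97), and the inhibitor Smurf1 was lower at 27.6 and 18.1 CPM, or -0.61 (-1.01 to -0.22). In macrophage-like cells 4 of 8 response genes (Ccn2, Tgfbi, Col1a1 and Col3a1) were past the fold higher and none lower, and of 10 activators and matrix genes Fn1 was higher and Mmp9 lower, at 8.98 and 2.09 CPM, beside 2.91% and 3.25% of all genes. The collagens there were low, at 8.09 and 14.6 CPM for Col1a1, far under the fibroblast-like level.

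In SMC-like cells 3 of 12 response genes were past the fold higher and 1 lower, beside 5.50% and 10.7% of all genes. Tgfbi stood at 50.2 and 160 CPM, Postn, a matrix protein, at 324 and 491 CPM and the cell cycle inhibitor Cdkn1a at 143 and 252 CPM, while Cdkn2b had 11.2 and 6.43 CPM. Macrophage markers in SMC-like cells were also higher in EC-iCD45KO, as given above, and their part in the Tgfbi value was not tested. In the shallow cluster 3 of 11 response genes were past the fold higher (Tgfbi, Postn and Cdkn1a) and none lower, beside 12.0% and 16.2% of genes. In the deep one 1 of 12 was past it higher (Tgfbi) and 1 lower (Cdkn2b), beside 5.08% and 9.49%. Over the whole class the collagens Col1a1, at -0.11 (-0.22 to -0.01), and Col3a1, at -0.29 (-0.35 to -0.23), were not higher. Of 14 activators and matrix genes, Plau and Plat, plasminogen activators, were higher, Plat at 12.5 and 47.6 CPM, and Itgb8 was lower, at 27.1 and 14.6 CPM. The proteoglycan Dcn was lower at 1289 and 819 CPM, and fibroblast markers in the class were 1683 and 1068 CPM.

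The genes most like each member were named by Pearson correlation of log2(CPM + 1) over 24 points, 12 classes in each of 2 libraries, among 5917 genes with at least 50 CPM in at least 1 class of each library. Points of a library share its depth and free RNA, and no meaning beyond a like pattern is drawn. Ltbp4 was most like Cavin3 (0.98), Plpp1 and Wwtr1, and Ltbp1 was most like Pcdh7 (0.98), St5 and the smooth muscle kinase Mylk (0.96), 1 of the markers used to name the class. Ltbp2 followed Islr (0.94), a fibroblast marker, with Bgn and Gpc6, and Ltbp3 followed Pam (0.95), Fhl1 and Wtip. Tgfb2 followed Fhl1 (0.93), Prelp and Gnai1, and Tgfb3 followed Prelp (0.88), Slit3 and Il11ra1. Tgfb1 was most like Actr3 (0.94), Grb2 and Ubl3. Tgfbr1 was most like Ppt1 (0.90), Atp6v1a and the macrophage receptor Trem2, Tgfbr2 most like Pvt1 (0.89), Grap and Ncl, and Tgfbr3 most like Csgalnact1 (0.95), Nckap1 and Nbea. Among the members themselves, Tgfb2 and Ltbp1 had the highest r (0.93), and Tgfb1 and Ltbp2 the lowest (-0.78).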

How the data were processed

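Both deposited matrices list counts, whole numbers of UMIs for each gene and barcode, made with Cell Ranger 7.1.0 on mm10 (GRCm38), per the submitters' processing notes. Intron counting and use of strand are not given in the sources used here. Barcodes were kept from 300 genes and up to 10% mitochondrial UMIs, leaving 39503 in WT and 28960 in EC-iCD45KO. Scrublet's own threshold marked 6 of 39682 and 0 of 29957 barcodes and so had not worked. Instead the top 10% of scores was dropped, a step decided with the data in view. Clustering ran on both libraries together without correction (scanpy 1.11.5, 2000 variable genes, 30 principal components, 20 neighbours, leidenalg 0.10.2, resolution 1), and the 10 genes, pathway lists and Ptprc were left out. Names of the form X-like came from 20 marker lists. Gene positions are those of GENCODE M21.

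CPM are summed UMIs of a gene over all UMIs of a class, with exact Poisson intervals. Log2 ratios carry exact conditional binomial intervals and shares Clopper-Pearson ones, all at 95% and for counting error only. The members, lists and markers were chosen with earlier results of these data known. All 10 members are named. Some results are not reported here. List genes are named where past 1.5-fold in EC-like, SMC-like or fibroblast-like cells or as examples of high level, and like genes are the 3 with the highest correlation. Eng, Acvrl1, Smad7, Junb and list genes given for SMC-like or macrophage-like cells under the fold were chosen after their values were seen. Alternatives covered cell filters, doublets, clustering, scaling, summaries and weights. The statistics were tested on simulated data. Python 3.11.15, numpy 2.4.6, scipy 1.17.1 and edgeR 4.0.16 in R 4.3.3 (TMM factors) were used.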

Additional observations from a re-analysis of the deposited data

Results flagged for a closer look

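Some of the 10 genes were past 1.5-fold in opposite directions in different populations, with intervals for counting error on opposite sides of 0, and these differences between populations were not tested. Tgfb2 had a log2 ratio of EC-iCD45KO to WT of 0.99 in the unnamed Mmp13 and Ibsp cluster (169 and 72 UMIs) and -1.28 in Schwann-like cells (25 and 40 UMIs). Ltbp1 had 0.61 in the unnamed Dgkb and Notch3 cluster (61 and 164 UMIs) and -0.66 in Schwann-like cells (34 and 84 UMIs). Ltbp3 had 0.85 in the unnamed cluster of cycling cells led by Ube2c and Hist1h1b (30 and 30 UMIs) and -1.09 in Schwann-like cells (24 and 44 UMIs). Each rests on 1 library per group. For each gene the most extreme population each way is given, and how many of all genes meet the same rule was not counted. In Schwann-like cells 21.6% of genes were past the fold lower. Those past it higher were 11.8% of genes in the Mmp13 and Ibsp cluster, 19.5% in the Dgkb and Notch3 cluster and 14.3% in the Ube2c and Hist1h1b cluster. Plasma cell markers in Schwann-like cells stood at 4438 and 188 CPM, and in the Ube2c and Hist1h1b cluster fibroblast markers stood at 220 and 651 CPM and smooth muscle markers at 347 and 891 CPM, and their part was not tested.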

How the results depend on the processing

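No paired analysis was possible because there was a single library in each group. Of 400 recomputed log2 ratios of the 10 genes in 4 classes, 335 stayed inside the counting interval of the reported value, and 65 moved outside it. Of the 34 ratios 20 had the other sign in at least 1 recomputation (51 of the 400), none of them among the 3 past the fold. Of 400 recomputed levels 160 moved outside their interval, 62 of them with mitochondrial, ribosomal, haemoglobin and immunoglobulin genes left out of the CPM and 57 with means of single-cell CPM, and of 160 shares of cells at another depth 146 did. In EC-like cells the count lower was 1 with the looser cell filter (Ltbp2) and 3 with the level of T/NK-like and B-like cells subtracted (Tgfb2, Tgfbr1 and Ltbp3), and the count higher was 1 with means of single-cell CPM. In SMC-like cells the count lower was 1 with the stricter filter, the looser filter, no doublet removal, Leiden resolution 2 and cells without common leukocyte markers. The count higher there was 1 with no doublet removal, TMM scaling and lymphocyte subtraction (Tgfbr1), and 2 with cells without leukocyte markers. In fibroblast-like cells the count lower was 1 with the looser filter and 2 in cells without leukocyte markers, where the count higher was 3. The count higher was 1 with CPM without mitochondrial, ribosomal, haemoglobin and immunoglobulin genes and with clusters weighted equally, where Ltbp3 was under the fold at 0.56 and 0.45. In macrophage-like cells the count higher was 2 at resolution 2, 3 with that reduced CPM and with means of single-cell CPM, and 4 with no minimum, and the count lower was 2 with means of single-cell CPM. The share of all genes past the fold was computed in the reported setting alone, so these counts have no such share beside them. The cause of these moves was not tested. Subtraction took off the whole lymphocyte level, and gave no value for 8 of 34 ratios, where it left a level at or below 0. Ltbp2 in EC-like cells, at -0.41, ran from -0.65, past the fold, to 0.41. The class with the highest level was the same in 66 of 80 recomputations of the clustering. Ratios from under 20 UMIs in a library are limited by depth.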
